A study of Mus musculus with 16 samples.

Results

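DNA glycosylases start base excision repair: each recognises a damaged or mispaired base, cuts it from its sugar and leaves an abasic site that is then opened, filled and sealed, so that a single-strand break is a normal intermediate. TDG (thymine DNA glycosylase) removes thymine mispaired with guanine and also 5-formylcytosine and 5-carboxylcytosine, the later oxidation products that TET enzymes make from 5-methylcytosine, which makes it an enzyme of active DNA demethylation. UNG, SMUG1 and MBD4 act on uracil or on mismatched thymine, OGG1 and MUTYH on the 8-oxoguanine pathway, NTHL1, NEIL1 and NEIL2 on oxidised pyrimidines, and MPG on alkylated purines. Here the genes of these 10 enzymes were examined as places where breaks themselves gather. The 10 genes were chosen by name, out of 21938 protein-coding genes on chromosomes 1 to 19, X and Y. A break peak belonged to a gene if it shared 1 bp or more with the gene body plus 5 kb on each side (GENCODE M21, mm10). This gave 66 of the 103545 deposited peaks, which merged into 31 separate regions.

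The peaks come from SSB-seq, in which E. coli DNA polymerase I labels free 3′ ends of nicked genomic DNA with digoxigenin and labelled fragments are immunoprecipitated (IP) and sequenced beside unselected input DNA. The cells were embryonic stem cells from C57BL/6JRj mice, kept in serum-free 2i medium with LIF. The 4 conditions were Tdg-depleted cells (KO) with 5 nM talazoparib for 24 h, KO cells with DMSO, wild-type cells (WT) with the same talazoparib treatment, and WT cells with DMSO. Talazoparib inhibits poly(ADP-ribose) polymerases, which sense and help repair single-strand breaks. Depletion rested on excision of a Tdg minigene with 5 µM 4-OHT for 2 h, in a protocol that the labels give alike for every library, so whether WT cells also received 4-OHT is not stated. Each condition had 3 IP libraries and 1 input library, and the labels tie all of them to a single peak list, so replicate spread is unknown throughout and no condition was tested against another. The run codes in the library descriptions differ between KO and WT, so genotype and run cannot be told apart. The IP libraries summed to 66.4 M tags in KO talazoparib, 69.2 M in KO DMSO, 83.8 M in WT talazoparib and 87.0 M in WT DMSO, and the inputs to 28.3, 24.8, 24.5 and 38.1 M tags in the same order. Every listed peak had at least 4 times as many scaled IP tags as input tags. The highest p-value in the lists, by the authors' test of pooled IP over input per peak, was 8.32e-05. A gene missing from a list therefore lacks a peak within these limits, not necessarily breaks.

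The DNA just before the starts of 7 of the genes is shown. Of the 6 regions found in every list, 5 lay at the gene's own start, as did the Tdg start peak. Of the genes concerned, Tdg, Ung, Ogg1, Mutyh and Mbd4 are shown and Mpg is not. Nthl1 and Smug1 are shown beside them. Each stretch lies upstream of the outermost annotated start, is free of annotated exons, runs 5′ to 3′ on the gene's strand (RefSeq sequence of GRCm38.p6, the assembly behind mm10), and has its CpG dinucleotides in capitals. The Tdg stretch (chr10:82629628-82629827, plus strand) has 17 CpG in 200 bases and was inside the WT DMSO peak with the highest IP density at these genes. The Ung stretch (chr5:114130186-114130385, plus strand) has 6 CpG in 200 bases, and that of Ogg1 (chr6:113326772-113326971, plus strand) has 17. For Mutyh (chr4:116807641-116807722, plus strand), Mbd4 (chr6:115853372-115853469, minus strand) and Nthl1 (chr17:24632631-24632679, plus strand) the stretch is the whole gap to a neighbouring gene that is transcribed the other way, and holds 9, 8 and 3 CpG. Smug1 (chr15:103167093-103167292, minus strand) has only 2 CpG in 200 bases and no peak within 1 kb of this start in any list.
Tdg: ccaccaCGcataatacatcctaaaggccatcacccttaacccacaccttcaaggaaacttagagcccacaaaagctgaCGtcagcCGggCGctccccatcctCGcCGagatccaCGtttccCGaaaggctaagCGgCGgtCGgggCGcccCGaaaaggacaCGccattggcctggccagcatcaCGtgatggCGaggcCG
Ung: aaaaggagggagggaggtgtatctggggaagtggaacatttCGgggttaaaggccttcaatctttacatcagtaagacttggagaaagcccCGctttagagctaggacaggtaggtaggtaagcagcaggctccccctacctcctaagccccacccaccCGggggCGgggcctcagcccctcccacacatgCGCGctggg
Ogg1: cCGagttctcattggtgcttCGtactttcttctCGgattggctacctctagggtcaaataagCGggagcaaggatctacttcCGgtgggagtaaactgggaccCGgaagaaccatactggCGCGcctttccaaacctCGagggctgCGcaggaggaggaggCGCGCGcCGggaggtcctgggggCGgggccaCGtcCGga
Mutyh: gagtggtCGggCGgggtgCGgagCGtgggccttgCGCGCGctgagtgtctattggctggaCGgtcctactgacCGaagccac
Mbd4: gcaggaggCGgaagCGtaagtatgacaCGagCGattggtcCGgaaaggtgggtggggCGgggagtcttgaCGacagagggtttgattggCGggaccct
Nthl1: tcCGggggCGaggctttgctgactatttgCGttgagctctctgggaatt
Smug1: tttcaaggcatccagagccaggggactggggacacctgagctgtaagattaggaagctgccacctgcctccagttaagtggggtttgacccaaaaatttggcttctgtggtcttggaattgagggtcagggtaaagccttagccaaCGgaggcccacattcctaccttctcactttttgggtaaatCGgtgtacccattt

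All 10 glycosylase genes had a peak in both DMSO lists, and fewer had one with talazoparib. In KO cells 8 had a peak with talazoparib, where 58.9% of all protein-coding genes did, and 10 had a peak with DMSO, where 66.8% did. In WT cells 6 had a peak with talazoparib, against a background of 48.8%, and 10 with DMSO, against 60.9%. Tdg and Neil1 were without a peak in both talazoparib lists, and Smug1 and Nthl1 lacked one in WT talazoparib alone. The glycosylase genes are 5.506 to 20.972 kb long, and among the 7460 protein-coding genes in that length range the background was 56.0%, 64.7%, 45.1% and 58.2% for KO talazoparib, KO DMSO, WT talazoparib and WT DMSO. The peaks themselves numbered 11 in KO talazoparib and 24 in KO DMSO, and 9 in WT talazoparib and 22 in WT DMSO. Per Mb of window that is 53.5, 117, 43.8 and 107, where the windows of all protein-coding genes held 15.7, 22.9, 10.4 and 18.4. These rates compare 0.205 Mb of window with 1186 Mb from genes of every length. Unlike the shares of genes, they were not matched for length, so the part of gene length in this difference was not tested. Genes with a peak at a fold over input of at least 6 were fewer, 4 in KO talazoparib, 8 in KO DMSO, 2 in WT talazoparib and 5 in WT DMSO, and the background was then 25.1%, 50.1%, 31.3% and 27.7%.

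Gene by gene, a peak with DMSO and none with talazoparib was found at 2 genes in KO, Tdg and Neil1, where 11.6% of protein-coding genes had this pattern, and at 4 in WT, where 17.1% did. The opposite, a peak with talazoparib and none with DMSO, was found at 3.79% of protein-coding genes in KO and 5.01% in WT. It could not occur at the glycosylase genes, because all 10 had a peak in both DMSO lists. Fewer peaks with talazoparib than with DMSO were counted at 7 genes in KO (35.5%) and at 7 in WT (36.7%), and more at 0 in KO (11.0%) and 0 in WT (9.35%). These shares are of all protein-coding genes, of which 66.8% in KO and 60.9% in WT had a peak with DMSO. Genes without one cannot lose a peak. All 10 glycosylase genes had one, so the shares are not matched to them. Peaks in all 4 lists were found at 6 genes, Ung, Mbd4, Ogg1, Mutyh, Mpg and Neil2, and at 39.0% of protein-coding genes.

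**Figure D1:**
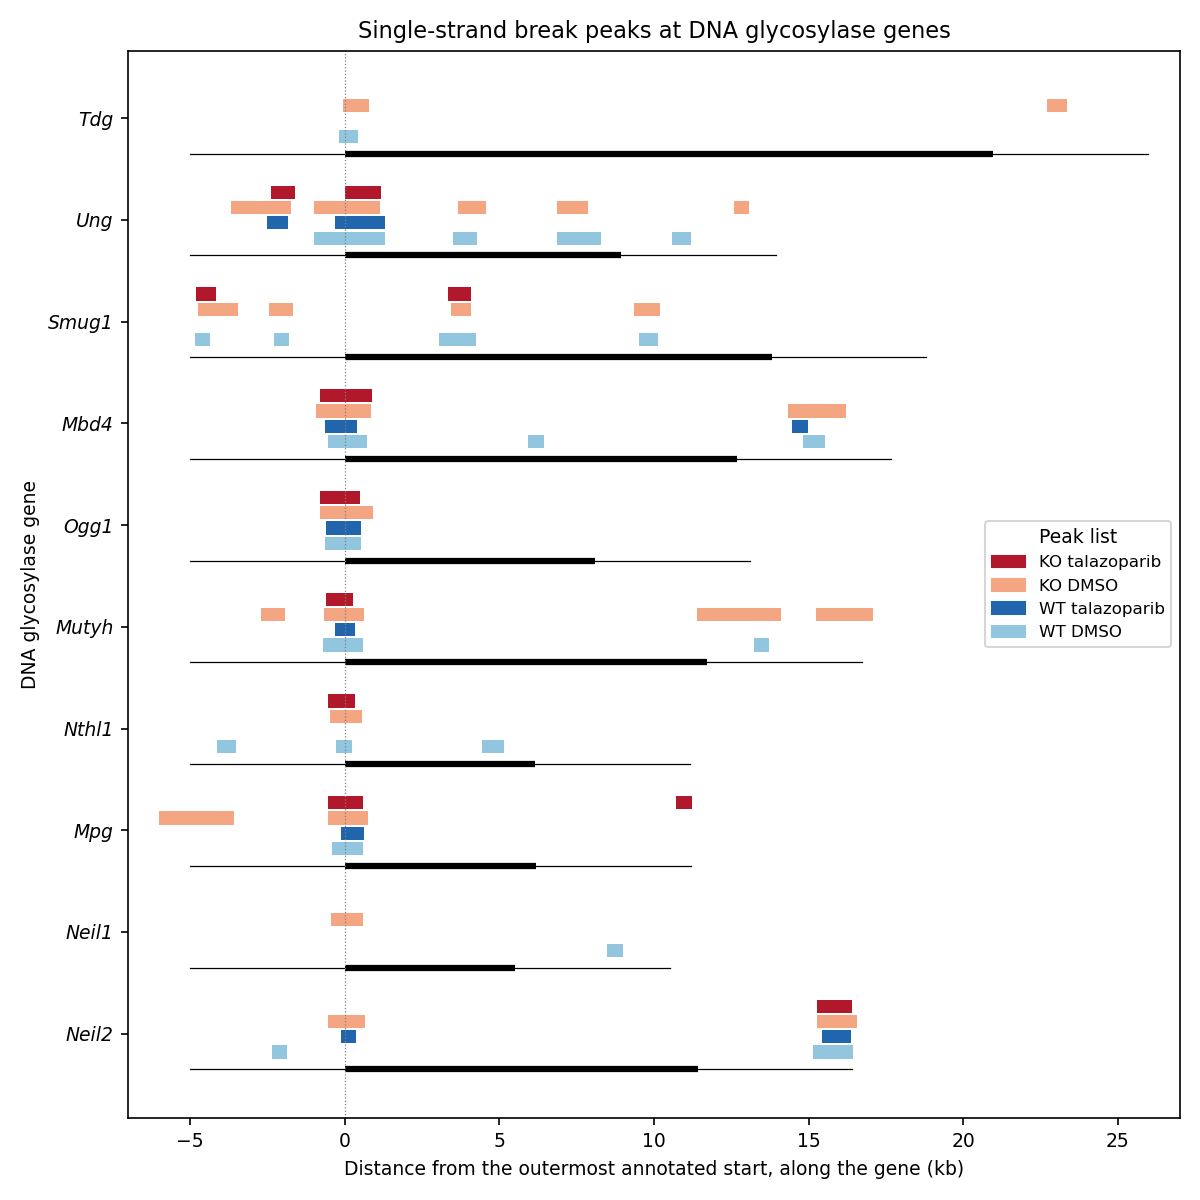
Position of every peak (coloured bars, to scale) along each gene, in kb from its outermost annotated start, for the 4 peak lists; the thick line is the gene body and the thin line adds 5 kb on each side. The stacks of 4 bars at the starts of Ung, Mbd4, Ogg1, Mutyh and Mpg are regions found in every list, while Tdg and Neil1 have bars of the DMSO lists only.

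**Figure D2:**
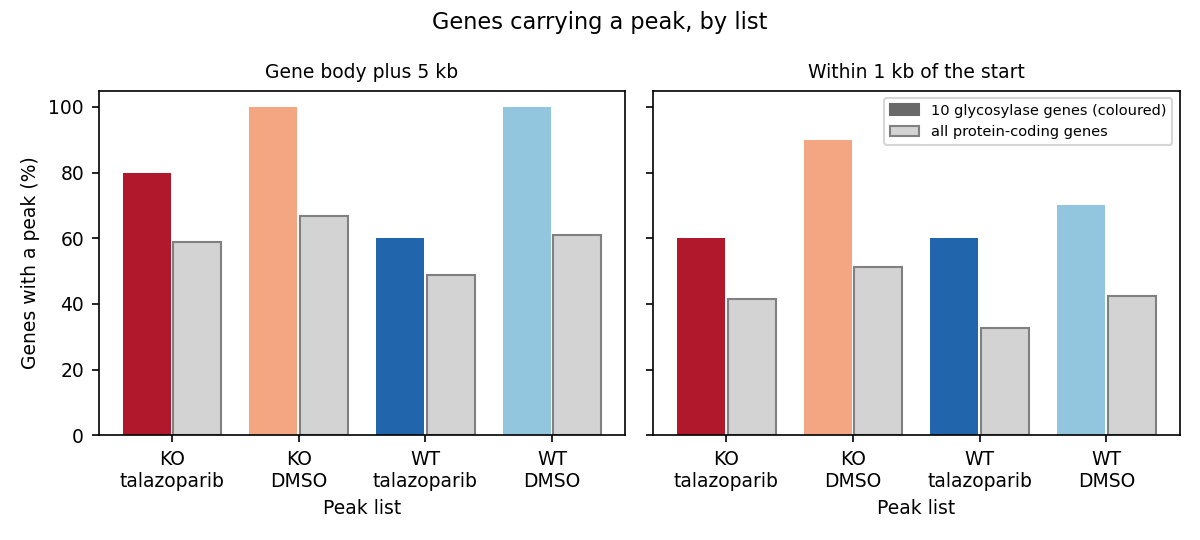
Share of genes with a peak, in percent, for the 10 glycosylase genes (coloured bars) and for all protein-coding genes (grey bars), in the gene body plus 5 kb (left) and within 1 kb of the start (right). The DMSO bars of the glycosylase genes reach 10 of 10 in the left panel, and in the right panel KO DMSO has 9 of 10.

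Start peaks were counted separately. Within 1 kb of the outermost annotated start, 6 of the 10 genes had a peak in KO talazoparib (41.4% of all protein-coding genes), 9 in KO DMSO (51.3%), 6 in WT talazoparib (32.6%) and 7 in WT DMSO (42.4%). A start peak in all 4 lists was found at 5 genes, namely Ung, Mbd4, Ogg1, Mutyh and Mpg, and at 21.6% of protein-coding genes. Start peaks with DMSO and none with talazoparib were found at 3 genes in KO, Tdg, Neil1 and Neil2 (background 14.5%), and at 2 in WT, Tdg and Nthl1 (16.0%), while the opposite held at 0 in KO (4.64%) and at 1 in WT, Neil2 (6.21%). These shares too are of all protein-coding genes, with or without a start peak with DMSO, and are not matched to the glycosylase genes. A start peak in KO and none in WT was found with talazoparib at Nthl1, 1 gene (15.3%), and with DMSO at Neil1 and Neil2, 2 genes (13.8%). The reverse, in WT and not in KO, was found with talazoparib at Neil2, 1 gene (6.55%), and with DMSO at 0 genes (4.97%). The start peaks had median lengths of 1151, 1283, 898 and 1170 bp in KO talazoparib, KO DMSO, WT talazoparib and WT DMSO, and the other peaks of these genes 754, 979, 670.0 and 630.0 bp. The median IP tag density of start peaks, in tags per bp relative to that IP pool's genome-wide mean, was 6.99 in KO talazoparib, 4.44 in KO DMSO, 3.93 in WT talazoparib and 4.41 in WT DMSO. The other peaks of the same genes had median densities of 4.65, 2.71, 3.16 and 2.05. For comparison, peaks at the starts of all protein-coding genes had medians of 4.83, 3.75, 3.16 and 3.03. Median CpG content of the glycosylase genes' peaks was 5.95, 4.51, 6.18 and 5.47 per 100 bp at starts and 3.29, 2.41, 5.81 and 1.85 elsewhere. The input values of the glycosylase genes' peaks also stood above those of the lists. The median input density over all peaks of the glycosylase genes was 1.19, 0.606, 0.788 and 0.530 times the input's own mean, and that over all peaks of each list 0.561, 0.426, 0.306 and 0.417. Start peaks made up a smaller part of each list (33.8%, 28.7%, 40.7% and 29.2%) than of the glycosylase genes' peaks. Peaks at the starts of all protein-coding genes had input medians of 0.910, 0.615, 0.572 and 0.562. The glycosylase genes' input medians cover their start peaks and other peaks together, so they are not like for like with these start medians. No direction is read from the comparison. The fold rule lets a peak stand over a high input only if its IP density is high too, and the part of this rule in the densities was not tested.

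Tdg itself (ENSMUSG00000034674.18, chr10:82629828-82650799, plus strand) carried a start peak in KO DMSO and in WT DMSO and none in either talazoparib list. The peak held 8.60 normalised tags (tags per 10000000 IP tags) in KO DMSO and 20.9 in WT DMSO. Its IP density was 2.66 times the genome mean in KO DMSO (95% Poisson interval 2.03 to 3.42, counting error only) and 8.84 times in WT DMSO (7.61 to 10.2), so the intervals do not overlap. Among all peaks of its list by IP density, the Tdg peak stood in the top 44.0% in KO DMSO and in the top 0.154% in WT DMSO, and by the authors' peak score in the top 54.3% and the top 0.490%. The input moved with it: input density was 0.435 times the input's own mean in KO DMSO (0.105 to 1.18, from 3.5 tags) and 1.55 times in WT DMSO (0.849 to 2.61, from 14 tags), where it stood in the top 0.266% of its list. The authors' deposited table gives a fold over input of 6.11 in KO DMSO and 5.68 in WT DMSO. With a fold of at least 6 required, the Tdg start peak therefore stayed in KO DMSO only, and its presence in both DMSO lists did not hold. The peak centre lay 365 bp after the annotated start, in an intron, in KO DMSO and 113 bp after it, in an exon, in WT DMSO. Whether the minigene carries sequence from this stretch is not stated in the labels, and its part in the IP and input tags was not tested. The other Tdg peak, in KO DMSO only (chr10:82652540-82653171, 6.15 normalised tags), was 125 bp from a start of the neighbouring Glt8d2.

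Presence in both DMSO lists and in neither talazoparib list was shared by 3.63% of protein-coding genes, counted over genes with and without a DMSO peak. Of the other glycosylase genes Neil1 had this pattern, through a WT DMSO peak with 1 input tag. That peak is lost if 3 input tags or an equal number of best-scoring peaks per list are required. These settings left 9 and 8 of the 10 genes in WT DMSO, the second also without Mbd4. Of the further repair, demethylation and cell type genes listed for this work only Aptx had the pattern, the gene of aprataxin, which clears abortive ligation products. Neil1 differed from Tdg in place: its KO DMSO peak covered the start (chr9:57147720-57148748, 12.4 normalised tags, density 3.19), whereas its WT DMSO peak (chr9:57139319-57139819, 3.33 normalised tags, density 1.76) lay 69 bp from a start of Man2c1. At the start alone, the pattern of peaks with DMSO and none with talazoparib in both genotypes was met by Tdg among the 10 genes, and by 4.14% of protein-coding genes.

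**Figure D3:**
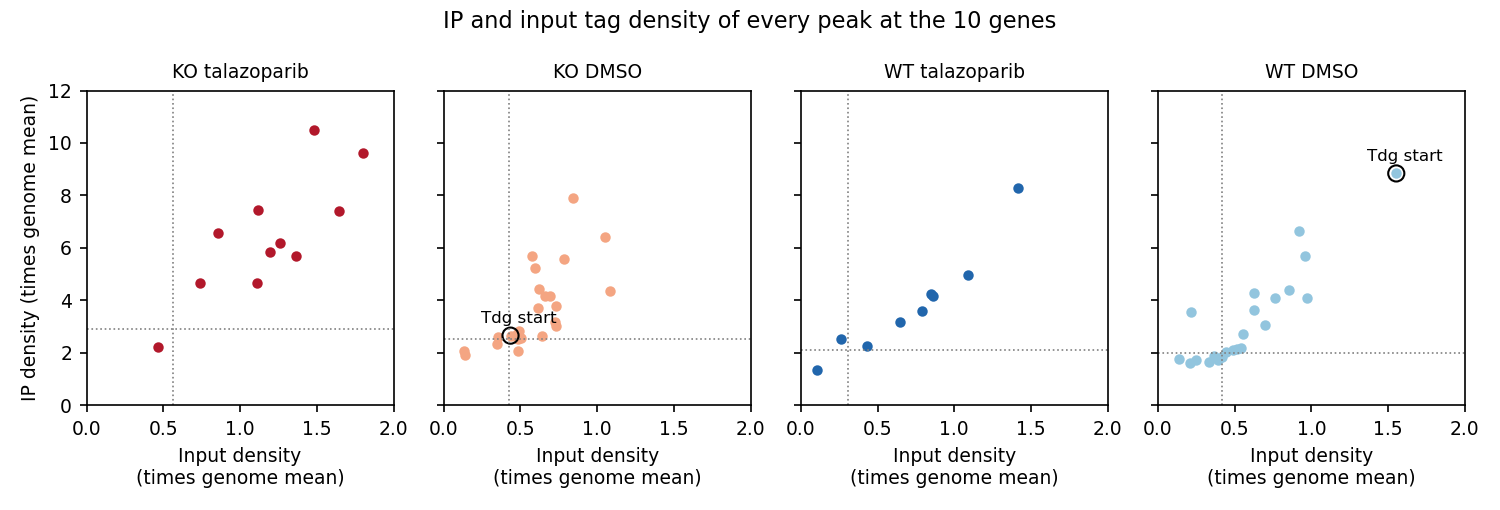
IP tag density against input tag density of every peak at the 10 genes, 1 panel per peak list, both in times the genome mean of the same library; dotted lines are the medians over all peaks of the list. No point can lie below 4 times its input density because of the authors' fold rule, and the circled Tdg start peak has the highest IP and the highest input density of the WT DMSO panel.

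Ung, the gene of the main nuclear and mitochondrial uracil glycosylase, had a broad peak over its start in all 4 lists, and its KO DMSO peak held the most normalised tags of the 66 peaks. This peak held 42.4 normalised tags over 1167 bp in KO talazoparib and 64.0 over 2146 bp in KO DMSO, and 51.5 over 1643 bp in WT talazoparib and 49.1 over 2285 bp in WT DMSO. Per bp the IP density was 9.62 times the genome mean in KO talazoparib (95% Poisson interval 8.52 to 10.8), 7.90 in KO DMSO (7.18 to 8.66), 8.30 in WT talazoparib (7.53 to 9.12) and 5.69 in WT DMSO (5.16 to 6.25). The talazoparib peaks were shorter and denser than the DMSO peaks in both genotypes, and began closer to the annotated start. A second Ung region, at the start of the neighbouring demethylase gene Alkbh2, was listed in KO talazoparib (16.2 normalised tags), KO DMSO (30.3) and WT talazoparib (7.99) and not in WT DMSO. Inside the Ung body, regions centred 3884 to 4124 bp and 7366 to 7573 bp after the start were listed in both DMSO lists and in neither talazoparib list, with 8.10 and 10.5 normalised tags in KO DMSO and 5.34 and 9.25 in WT DMSO. Beyond the gene's end lay a peak of KO DMSO alone (4.99) and one of WT DMSO alone (5.29).

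Smug1, the gene of a further uracil glycosylase, was the only one of the 10 with no peak within 1 kb of its outermost start in any list. Its densest peaks inside the gene were centred 3635 to 3763 bp downstream instead, at the inner start of an annotated shorter transcript, near which the RefSeq promoter window of the gene lies. There the peak held 13.3 normalised tags in KO talazoparib, 10.5 in KO DMSO and 13.7 in WT DMSO, with IP densities of 4.65, 4.35 and 3.05, and WT talazoparib had none. The RefSeq promoter window at the inner start holds 15 CpG, where the median of 32851 such windows is 7. A region centred 4099 to 4594 bp upstream of the outer start was in the same 3 lists, with 11.1, 20.7 and 7.76 normalised tags. The remaining Smug1 regions were in both DMSO lists only, with 6.43 and 7.37 normalised tags in KO DMSO and 3.91 and 3.45 in WT DMSO. Counting a peak at any annotated transcript start, an alternative chosen after seeing the data, gave 7, 10, 6 and 8 genes in KO talazoparib, KO DMSO, WT talazoparib and WT DMSO, and raised the background to 45.9%, 56.0%, 36.6% and 47.4%.

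Mbd4, which encodes a glycosylase with a methyl-CpG-binding domain, starts 99 bp from Ift122, which runs the other way. The peak over this shared start was in every list, with 42.0 normalised tags in KO talazoparib, 35.4 in KO DMSO, 14.0 in WT talazoparib and 19.6 in WT DMSO. IP density was 6.56 in KO talazoparib (5.82 to 7.38) and 5.23 in KO DMSO (4.60 to 5.93), and 3.61 in WT talazoparib (2.99 to 4.33) and 4.08 in WT DMSO (3.49 to 4.74). Both KO values lay above both WT values, and within each genotype the intervals of the treatments overlapped. A further region near a start of Efcab12 had 19.3 normalised tags in KO DMSO, 4.29 in WT talazoparib and 4.66 in WT DMSO and was not listed in KO talazoparib, and WT DMSO alone had a small intron peak (3.97 normalised tags).

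Ogg1, whose product removes 8-oxoguanine, and Mutyh, whose product removes adenine opposite it in the same pathway, both had a start peak in every list. Ogg1 had no other peak in any list. Over its start stood 51.1 normalised tags in KO talazoparib and 41.9 in KO DMSO, and 21.5 in WT talazoparib and 29.3 in WT DMSO. The IP density in KO talazoparib, 10.5 times the genome mean (9.40 to 11.7), was the highest of all 66 peaks, and KO DMSO had 6.42 (5.71 to 7.21), WT talazoparib 4.98 (4.27 to 5.76) and WT DMSO 6.63 (5.84 to 7.50). In Ogg1 the interval with talazoparib therefore lay above that with DMSO in KO cells and below it in WT cells. Mutyh shares its start region with Toe1, 83 bp away on the other strand. Its peak held 24.7 normalised tags in KO talazoparib, 27.9 in KO DMSO, 5.97 in WT talazoparib and 17.4 in WT DMSO, with IP densities of 7.41 (6.32 to 8.64), 5.69 (4.92 to 6.55), 2.53 (1.88 to 3.33) and 3.56 (3.02 to 4.18). The KO peaks were denser than the WT peaks under either treatment. Input density at the Mutyh start was 1.64 in KO talazoparib and 0.575 in KO DMSO, and 0.259 in WT talazoparib and 0.215 in WT DMSO. These rest on 15.5, 7, 1.5 and 4 input tags. The remaining Mutyh peaks were of the DMSO lists and lay near other genes, among them Hpdl (30.7 normalised tags in KO DMSO and 5.11 in WT DMSO). KO DMSO alone had one near Toe1 (5.57) and one past Hpdl (14.5).

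None of the genes for glycosylases of oxidised pyrimidines had a peak at its own start in all 4 lists. Nthl1 starts 50 bp from Tsc2, a tumour suppressor gene of the other strand. Its start peak was listed in KO talazoparib (20.9 normalised tags, IP density 6.20, interval 5.22 to 7.33), KO DMSO (14.5, density 3.71, 3.02 to 4.51) and WT DMSO (6.84, density 3.62, 2.76 to 4.67) and not in WT talazoparib. WT DMSO alone had a peak in a Tsc2 intron (4.88) and one in an Nthl1 intron (5.98). The start of Neil2 had a peak in KO DMSO (11.9 normalised tags, density 2.62, interval 2.09 to 3.26) and in WT talazoparib (2.51 normalised tags, density 1.33, 0.821 to 2.03), the last being the lowest density of the 66 peaks and resting on an input of 0.5 tags. WT DMSO had a peak 2111 bp upstream of the start instead (3.05 normalised tags). Neil2 was counted in all 4 lists through another region, centred 15794 to 15903 bp after the Neil2 start, which lies at a start of Fdft1, the squalene synthase gene, and had 31.8, 27.3, 14.9 and 20.7 normalised tags in KO talazoparib, KO DMSO, WT talazoparib and WT DMSO. Neil3, a further gene of this family that was not among the 10, had no peak in any list.

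Mpg, whose product removes alkylated purines, has its start inside Nprl3, which runs on the other strand, and had a start peak in every list. Normalised tags were 25.0 in KO talazoparib and 21.5 in KO DMSO, and 12.3 in WT talazoparib and 16.9 in WT DMSO. IP densities were 5.83 (4.98 to 6.79), 4.44 (3.75 to 5.20), 4.25 (3.46 to 5.14) and 4.41 (3.73 to 5.19) in that order, and all 4 intervals overlapped each other. A broad KO DMSO peak near a start of Rhbdf1 (34.4 normalised tags over 2394 bp) and a KO talazoparib peak inside Nprl3 (4.22) completed the Mpg window.

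**Figure D4:**
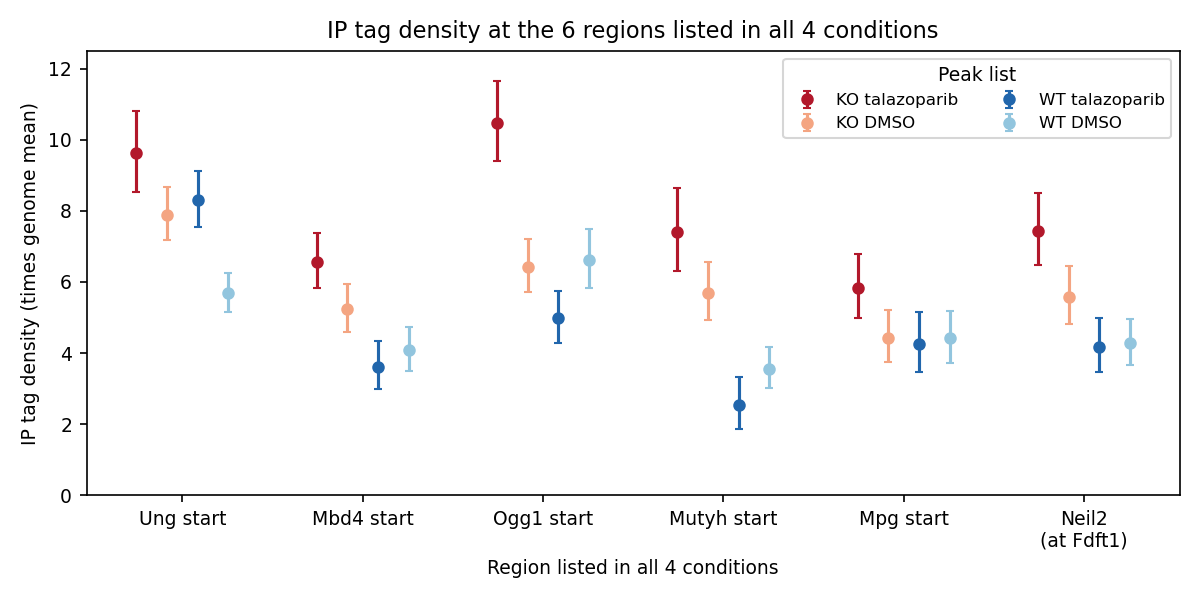
IP tag density, relative to each IP pool's genome-wide mean, at the 6 regions listed in all 4 conditions; points are pooled lists and bars are 95% Poisson intervals for counting error only. KO talazoparib is the highest point in each region, and Ogg1 and Mutyh show the widest gaps between the 2 talazoparib lists. The densities are not divided by input density, which was also highest in KO talazoparib in each region.

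Across the 6 regions listed in all 4 conditions, density with talazoparib was above that with DMSO in 6 of 6 in KO cells and in 1 of 6, Ung, in WT cells. Among all 5216 such regions near protein-coding genes the shares were 77.3% in KO and 46.7% in WT, with median ratios of talazoparib to DMSO of 1.19 in KO and 0.975 in WT. Density was higher with talazoparib in KO and was lower with it in WT in 5 of the 6 regions, all but Ung, and in 41.2% of all such regions. Density was higher in KO than in WT in 6 of 6 regions with talazoparib (91.8% of all such regions) and in 5 of 6 with DMSO (89.1%). With DMSO the exception was Ogg1. Each list has its own peak borders, and in all 6 regions the talazoparib peak was shorter than the DMSO peak in both genotypes, which bears on a density. By normalised tags of the whole peak, a comparison added after seeing the data, talazoparib was above DMSO in 4 of 6 regions in KO (49.0% of all such regions) and in 1 of 6, Ung, in WT (34.1%). The KO direction turned at Ung and at Mutyh, so that 4 of 6 regions were higher with talazoparib in KO and lower in WT (33.7%). KO stood above WT by tags in 5 of 6 regions with talazoparib (90.8%), all but Ung, and in 6 of 6 with DMSO (93.3%). Input density in KO cells was also higher with talazoparib than with DMSO at all 6 regions, for example 1.64 against 0.575 at Mutyh. By the deposited fold over input, KO talazoparib stood above KO DMSO only at Ogg1 (7.06 against 6.13). The KO fold was lower with talazoparib at Ung (5.34 against 9.35), Mutyh (4.51, 9.9), Mpg (4.88, 7.11), Mbd4 (7.68, 8.8) and near Fdft1 (6.68, 7.15). In WT cells the fold was lower with talazoparib at all 6 regions, by little at Ung (5.87 against 5.94). None of these differences has a replicate check.

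Of the 31 regions, 18 were found with DMSO only, 1 with talazoparib only and 12 with both. In percent these are 58.1%, 3.23% and 38.7%, where all 44699 regions near protein-coding genes gave 47.1%, 18.4% and 34.5%. Regions in all 4 lists made up 19.4% at the glycosylase genes and 11.7% near all protein-coding genes. Among KO DMSO peaks of the glycosylase genes 10 of 24 met a KO talazoparib peak (41.7%, Wilson 95% interval 24.5 to 61.2), and near all protein-coding genes 42.5% did. The WT DMSO peaks met a WT talazoparib peak in 7 of 22 cases (31.8%, 16.4 to 52.7), with 32.1% near all protein-coding genes. Both shares stood near their background. Counted the other way, 10 of 11 KO talazoparib peaks met a KO DMSO peak (90.9%, 62.3 to 98.4), with 62.8% near all protein-coding genes, and 7 of 9 WT talazoparib peaks met a WT DMSO peak (77.8%, 45.3 to 93.7), with 57.0%. KO peaks met a WT peak in 7 of 11 cases with talazoparib (63.6%, 35.4 to 84.8), against 36.6% near all protein-coding genes, and in 16 of 24 with DMSO (66.7%, 46.7 to 82.0), against 44.6%. WT peaks met a KO peak in 7 of 9 cases with talazoparib (77.8%), against 55.3%, and in 16 of 22 with DMSO (72.7%, 51.8 to 86.8), against 56.3%.

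Some of the regions lay at neighbouring genes. In 13 of the 31 regions the nearest annotated start belonged to another gene, and in 8 of these it was within 1 kb. The same share over all regions near protein-coding genes is not given here, so these counts have no background. Of the 10 genes 4, Mbd4, Ogg1, Mutyh and Nthl1, have the start of an oppositely transcribed gene within 1 kb, at 50 to 225 bp. All 4 had a start peak in KO talazoparib, KO DMSO and WT DMSO, and all but Nthl1 had one in WT talazoparib. Of the genes without such a partner, Ung and Mpg had a start peak in every list and Smug1 in none. Partners of the 10 genes were sought among all transcript starts, and those of all genes among gene starts only. Genome-wide, genes with such a partner start had a start peak more often than genes without it: 71.9% against 34.5% in KO talazoparib, 83.1% against 44.1% in KO DMSO, 58.9% against 26.7% in WT talazoparib and 71.6% against 35.8% in WT DMSO. Ogg1's partner is the antisense transcript Gm15492. In the RefSeq promoter windows of 9 of the 10 genes (10 windows), the letters GGGCGG, the GC box bound by Sp factors, stood on either strand in 7 windows, against 35.7% of all promoter windows of equal length. CCAAT stood in 8, both Mutyh windows among them, against 37.4%. CCGGAAG, an ETS core, stood in 3, against 8.86%, and the NRF1 palindrome in 0, against 0.971%. These shares are not matched for CpG, which the GC box and ETS letters themselves contain. The median over all 32851 windows was 7 CpG. The windows of the 9 genes held 15 to 31, apart from 1 Mutyh window with 2. Tdg has CCAAT and not GGGCGG in its window.

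Genes that act after the glycosylases carried peaks as well. Of 16 downstream genes of base excision and break repair, 13 had a peak in KO talazoparib and 16 in KO DMSO, and 10 in WT talazoparib and 13 in WT DMSO, where the shares over all protein-coding genes were 58.9%, 66.8%, 48.8% and 60.9%. The 8 with a peak in all 4 lists included Aplf (3, 2, 4 and 3 peaks in KO talazoparib, KO DMSO, WT talazoparib and WT DMSO), a histone chaperone recruited by poly(ADP-ribose), and Parp3 (2, 3, 1 and 4). Apex1, the AP endonuclease that cuts the abasic site left by a glycosylase, had 2 in each list, and Parp1, the main target of talazoparib, had 2, 2, 1 and 2. Of 7 genes placed before TDG in demethylation, 6, 6, 4 and 5 had a peak, led by Tet1 (6, 10, 2 and 6). Tet1 is 104 kb long and had no start peak in any list. The gene lists set beside the glycosylase genes were not matched for length to all protein-coding genes. Members of both lists had fewer genes with a peak in WT talazoparib than in the other lists, as did protein-coding genes as a whole.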

How the data were processed

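The submitters' processing notes name build mm10, HOMER 4.11, Bowtie2 2.3.4.2, R 3.6 and Picard 2.9.2, with no settings. The deposited tables, 1 per condition, have HOMER findPeaks columns per the file headers and pool the IP libraries. The authors' normalised tag count is a signal, and so are the deposited input tags, which come in steps of 0.5. The authors' scaled IP tags are of another unit (other). The deposited fold is a ratio of scaled IP to input tags, and matched those columns within 1% for 100% of peaks. The deposited p-value was not used here to select peaks, and whether the peak calling had a limit on it is not stated. The authors' score only ranked peaks within a list, and their clonal score was not used. Positions are printed as deposited, and the base from which starts are counted is unknown.

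IP totals came from the steps of normalised counts under 6, which fell on multiples of 0.5 tags within 0.0051 for 100% of values, and input totals from the scaled over the normalised tags. Density is tags per bp over the mean across 2648 Mb of sequenced bases. Analysis used Python 3.11.15, pandas 2.3.3, scipy 1.17.1 and pysam 0.24.0, and the overlap counting was tested on simulated data. Genes, lists and members were chosen with earlier results of these data known. All 10 genes are named. Of the fixed lists (downstream repair, demethylation, mismatch repair, naive stem cell, extraembryonic endoderm and fibroblast genes), those with most peaks are named, except that some genes are not reported here. No comparison between conditions was tested, because each has 1 pooled list. Poisson and Wilson intervals cover counting error only.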

Additional observations from a re-analysis of the deposited data

Results flagged for a closer look

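The densities are per bp of each list's own peak. At the 6 regions found in all 4 lists, the ratio of IP density with talazoparib to that with DMSO was compared between genotypes, and in 5 of them it was above 1 in KO cells and below 1 in WT cells. At the Ogg1 start the ratio was 1.63 in KO and 0.751 in WT. The Mutyh start had 1.30 in KO and 0.710 in WT, and the Mbd4 start 1.26 and 0.885. At the Mpg start the ratios were 1.31 in KO and 0.962 in WT, and at the region near Fdft1 in the Neil2 window 1.33 and 0.978. This opposite movement was seen at 41.2% of the 5216 regions near protein-coding genes that all 4 lists hold, and the reverse movement at 10.6%. By normalised tags of the whole peak the KO ratio at Mutyh was 0.885 and the WT ratio 0.343, so there the movement was not opposite, while at the other 4 regions it was: 1.22 in KO and 0.734 in WT at Ogg1, 1.19 and 0.714 at Mbd4, 1.16 and 0.728 at Mpg, and 1.16 and 0.720 near Fdft1. By the deposited fold over input, only Ogg1 among the 6 regions moved in opposite directions. Its fold was 7.06 with talazoparib and 6.13 with DMSO in KO, and 4.58 and 7.19 in WT. At the other regions the fold was lower with talazoparib in both genotypes. The Neil2 start lost its peak with talazoparib in KO (a change of -1 peak) and had one with talazoparib in WT (a change of 1 peak). Each condition is 1 pooled list, so these differences between genotypes were not tested.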

How the results depend on the processing

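Of 93 alternative values for 25 results, 19 moved, meaning a count changed by over 1.5 times or a share or median left the main value's interval, and 74 did not. The intervals are wide: the share of WT DMSO peaks met by a WT talazoparib peak stayed within its interval at 16.7% (1 of 6) with a fold of at least 6. The settings behind the 19 keep fewer peaks or a narrower window by construction. Requiring a fold over input of at least 6 left 4 genes with a peak in KO talazoparib, 2 in WT talazoparib and 5 in WT DMSO, and 4, 13, 2 and 6 peaks in KO talazoparib, KO DMSO, WT talazoparib and WT DMSO. The share of KO peaks met by a WT peak was then 0% with talazoparib (0 of 4) and 23.1% with DMSO (3 of 13). For start peaks, where this setting was added after seeing the data, 2 genes were left in each of KO talazoparib, WT talazoparib and WT DMSO. Counting the gene body only left 7 peaks in KO talazoparib, 14 in KO DMSO and 13 in WT DMSO, and the start alone 6, 9 and 7. Taking an equal number of best-scoring peaks from each list left 9 peaks in KO talazoparib, 15 in KO DMSO, 9 in WT talazoparib and 15 in WT DMSO, at 7, 9, 6 and 8 genes, so the excess with DMSO was smaller. Counting normalised tags in place of density left 4 of 6 shared regions higher with talazoparib in KO. No paired analysis was possible because each condition has 1 pooled peak list and no values per library. Small input counts limit the fold: the median over peaks of the glycosylase genes was 13.5 input tags in KO talazoparib, 7 in KO DMSO, 6 in WT talazoparib and 4.75 in WT DMSO.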

Other observations

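Mismatch repair, which acts on the same G:T pairs as TDG and MBD4, had a peak at 5 of 6 genes in KO talazoparib and 6 in KO DMSO, and at 4 in WT talazoparib and 6 in WT DMSO. Over all protein-coding genes the shares were 58.9%, 66.8%, 48.8% and 60.9%. Msh3 had 1, 2, 1 and 2 peaks in KO talazoparib, KO DMSO, WT talazoparib and WT DMSO, and Pms2 had 1 in every list. At their starts, 4, 6, 4 and 6 of the 6 genes had a peak, with 41.4%, 51.3%, 32.6% and 42.4% over all protein-coding genes.

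A peak list does not measure expression, so the cell type could not be checked from expressed markers. The following counts stand beside the same shares of 58.9%, 66.8%, 48.8% and 60.9% over all protein-coding genes. Of 14 naive embryonic stem cell genes, 12, 14, 11 and 13 had a peak in KO talazoparib, KO DMSO, WT talazoparib and WT DMSO. For 8 extraembryonic endoderm genes the numbers were 7, 4, 4 and 5, and for 8 fibroblast genes 2, 3, 2 and 2. Among the fibroblast genes Col1a1 (1, 4, 1 and 3 peaks) and Fn1 (2, 4, 3 and 4) had a peak in all 4 lists, Thy1 had 1 in KO DMSO only, and Col1a2, Col3a1, Dcn, Lum and Postn had none.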
